A study of Ovis aries with 14 samples.

Results

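The comparison set hypothalamic RNA of fetal sheep that received triclosan into their own circulation against that of fetuses whose mothers received it. It used 7 of the 14 deposited arrays, chosen by their labels alone: 4 of fetuses infused intravenously with triclosan at 250 µg per day (fetal triclosan), and 3 of fetuses carried by ewes infused with triclosan at 100 µg/kg per day (maternal triclosan). Every infusion lasted 2 days, and all fetuses were at about day 130 of gestation. Fetuses of the direct arm carried catheters. Route, dose and the compartment infused differed together between the groups. Their parts in any difference, and any part of the catheters, cannot be told apart. The vehicle arrays, 4 with vehicle given to the fetus and 3 with vehicle given to the ewe, were used only as background. The third array of vehicle given to the ewe equalled a weighted sum of the other 2 arrays of its group at every spot and was left out, so the background rested on 6 arrays. The sources used here name neither strain nor sex and do not say if each array stands for its own pregnancy, so the p values measure only the spread between these arrays, which may be technical.

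Triclosan is a chlorinated phenol used as an antibacterial agent in soaps and toothpaste. In the ewe it can be conjugated by the liver and must cross the placenta before it reaches the fetus, whereas an infusion into the fetal blood bypasses the mother and the placenta. The fetal hypothalamus makes the releasing hormones that drive the pituitary and the peptides that later control appetite, and in late gestation it takes part in the maturation of the stress, thyroid and growth axes.

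The arrays were single-colour Agilent ovine arrays, on which each probe is 60 bases long. Values are log2 of the processed signal minus the 75th percentile of the same array, so 0 is the 75th percentile and a difference of 1 is a 2-fold difference. Differences are fetal triclosan minus maternal triclosan throughout. Of 15008 probes, 13244 were well above background on at least 3 of the 7 arrays and were tested, and 864 named genes were among them. Each of the 7 arrays had 83.3% to 90.1% of its spots well above background and none saturated. The tissue label could be checked on hypothalamic peptides, since somatostatin (SST), oxytocin (OXT), pro-opiomelanocortin (POMC), neuropeptide Y (NPY) and agouti-related peptide (AGRP) were well above background on all 7 arrays. No neuron or oligodendrocyte marker of the lists used was measured under its symbol.

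No probe passed an adjusted p of 0.05 in the fit of the 7 triclosan arrays alone by limma's moderated test, whose lowest adjusted p was 0.0842 (0% of probes called). At an unadjusted p under 0.05 there were 3152 probes (23.8%), against 662 that chance alone would give. Of these, 1066 (8.05%) were higher and 2086 (15.8%) lower in fetal triclosan. The values of both groups did not overlap at 3459 probes (26.1%), with fetal triclosan above at 1400 (10.6%) and below at 2059 (15.5%).

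The same difference was also fitted with 13 arrays, all but the vehicle array left out above, which then share 1 estimate of the spread. That fit called 1885 probes (14.2%), 623 higher (4.7%) and 1262 lower (9.53%) in fetal triclosan, and 97 of the 864 named genes (11.2%), 38 higher (4.4%) and 59 lower (6.83%). Past a 2-fold difference it called 40 probes higher and 413 lower. The vehicle arrays varied less than the fetal triclosan arrays: the median SD over probes was 0.324 for fetal triclosan, 0.187 for maternal triclosan, 0.189 for vehicle given to the fetus and 0.124 for vehicle given to the ewe. The shared spread was therefore smaller than the fetal triclosan arrays' own, and adjusted p values of the 13-array fit may be too small for this difference. The 7-array fit was the planned test and called none of these probes. Below, "called" means an adjusted p under 0.05 in the 13-array limma fit. Adjusted p values of single genes are from that fit unless the 7-array fit is named. Each SE is that of the 7-array fit, so an SE and an adjusted p printed together can belong to different fits. The share of called probes that were higher was 33.1%, and it became 73.1% of 2410 called probes when arrays were scaled to their median instead. The median difference over all probes was -0.10 under the first scaling and 0.12 under the second.

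Of the 97 called named genes, 10 kept their call under all 22 alternatives to the 13-array fit, which changed the scaling, background correction or filter, added a block or left out 1 array. They included TAC1 and ENDOG among the genes higher in fetal triclosan, and NKX2.2, KDR, FGFR1, ACSS2, CSNK1E, TRAF3 and MYD88 among those lower. In the 7-array fit their adjusted p values ran from 0.0842 to 0.103. Without maternal triclosan 1, 19 of the 97 kept their calls, and without maternal triclosan 3 also 19. The 22 alternatives are not all separate tests, here or below. Leaving out a vehicle array changed the spread but not the triclosan difference. Either vehicle array of the maternal route, when left out, gave the same number of calls. Another alternative added back the vehicle array that equalled a weighted sum of others. The slide block gave the same differences as leaving out the fetal triclosan array alone on its slide. Because no genome came with the series, positions are given within the transcript record a probe was designed from.

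**Figure D1:**
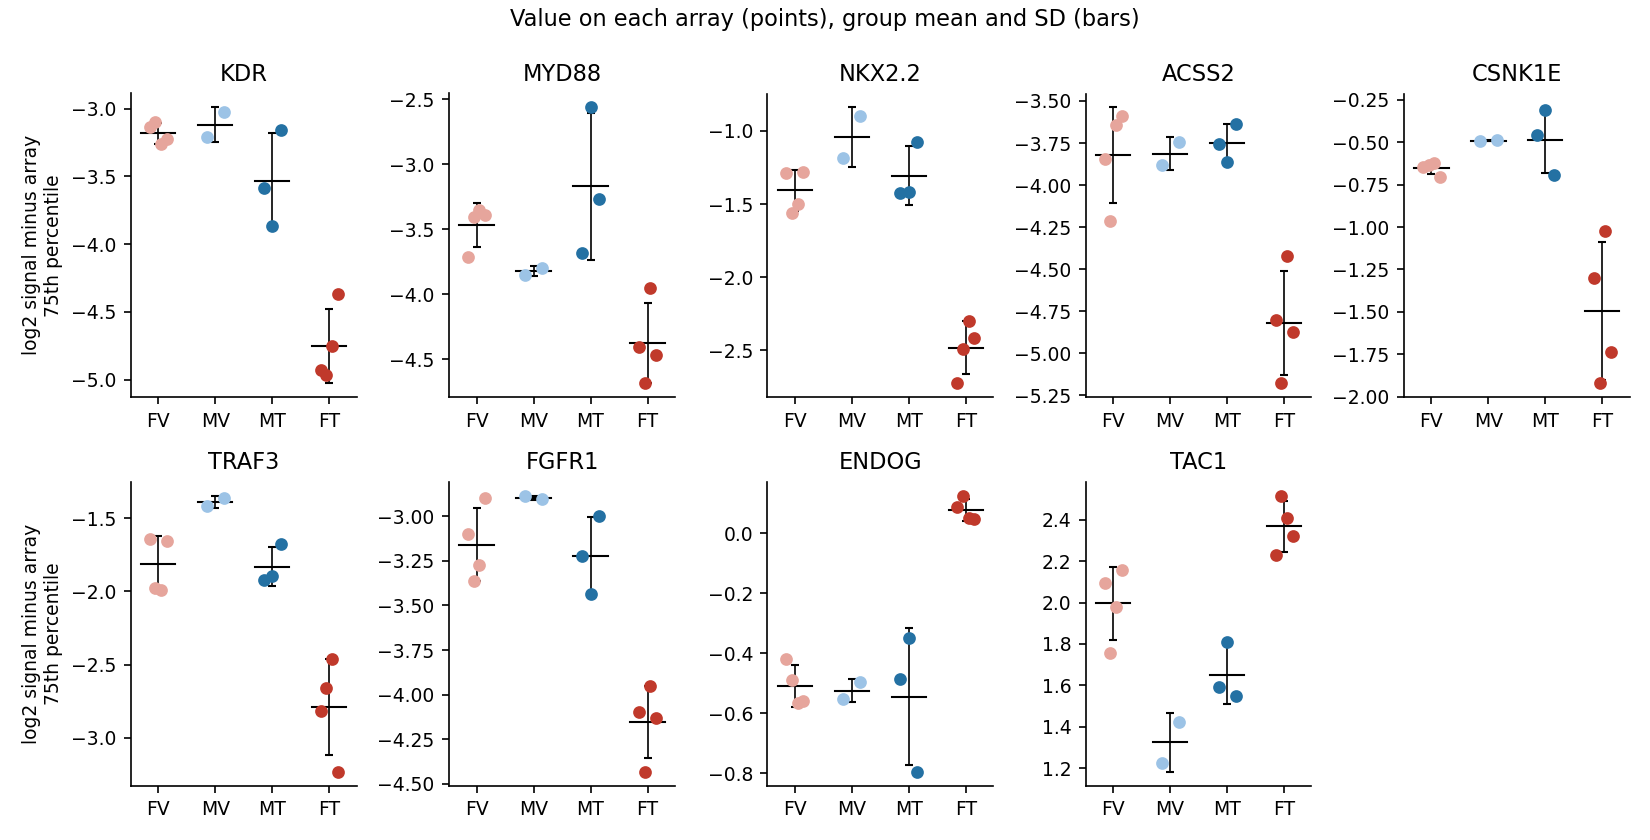
Values of 9 called genes that kept their call under all 22 alternatives, as log2 processed signal minus the array's 75th percentile (vertical axes), in 4 groups: FV and MV, vehicle given to the fetus (4 arrays) or to the ewe (2 arrays), MT and FT, triclosan given to the ewe (3 arrays) or to the fetus (4 arrays). Points are arrays, and bars are the group mean and SD. At each gene the 4 fetal triclosan points lie on 1 side of the 3 maternal triclosan points, above for TAC1 and ENDOG and below for the other 7.

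NKX2.2 encodes a homeodomain transcription factor of the ventral neural tube that is also used in oligodendrocyte and hypothalamic development. It had the lowest adjusted p among the named genes. Its level was -2.73, -2.49, -2.30 and -2.42 on fetal triclosan arrays 1 to 4, against -1.43, -1.42 and -1.07 on maternal triclosan arrays 1 to 3. The groups were separate, and the vehicle arrays, from -1.56 to -0.90, lay on the maternal triclosan side of the fetal triclosan values. The difference was -1.18 (SE 0.171, n = 4 and 3, limma adjusted p = 0.00431 in the 13-array fit and 0.0842 in the 7-array fit). Replicates 1 to 3 of both groups shared slides 1 to 3, and within those slides the differences were -1.30, -1.07 and -1.23. Its second probe gave -1.20, but that is not independent evidence, since both probes come from the same transcript record and overlap.

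KDR, the main receptor for vascular endothelial growth factor on endothelial cells, was measured by 4 probes from 2 transcript records, and all 4 were called lower in fetal triclosan. The brightest probe read -4.93, -4.97, -4.75 and -4.36 on fetal triclosan arrays 1 to 4, and -3.59, -3.87 and -3.15 on maternal triclosan arrays 1 to 3. The groups did not overlap at this probe, and the 6 vehicle arrays, between -3.26 and -3.03, lay above every triclosan array but maternal triclosan 3. The 4 probes gave -1.22 (SE 0.228, adjusted p = 0.006), -1.35, -0.76 and -0.62, the last with overlapping groups. Probes 1 and 2 are from 1 record. Probes 3 and 4 are from the other record and share 40 bases, shown in capitals.
KDR probe 1: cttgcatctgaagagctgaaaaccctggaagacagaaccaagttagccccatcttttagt
KDR probe 2: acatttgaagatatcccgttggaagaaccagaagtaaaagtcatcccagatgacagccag
KDR probe 3: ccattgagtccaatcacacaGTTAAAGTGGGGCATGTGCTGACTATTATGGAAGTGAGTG
KDR probe 4: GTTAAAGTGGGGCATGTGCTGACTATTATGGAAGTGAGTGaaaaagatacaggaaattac

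KDR belonged to a list of endothelial and pericyte markers, of which 7 of 15 were measured. All 7 had differences below 0, with a median of -0.89 against -0.11 over all named genes. That median is the value of ICAM1, from the dimmest of 10 equal bands by signal, whose probes had a median of -0.40. FLT1 was well above background on 1 fetal and 2 maternal triclosan arrays. Of the 7 markers 2 were called lower, KDR and CD93, a receptor of endothelial cells. Over all 864 named genes 6.83% were called lower and 4.4% higher, and the counts of the lists here and further on stand against those shares. CD93 read -4.40, -5.91, -3.99 and -3.69 on fetal triclosan arrays 1 to 4, and -2.75, -3.34 and -2.76 on maternal triclosan arrays 1 to 3. The groups were separate at CD93, with fetal triclosan 2 the lowest array (difference -1.54, SE 0.5, adjusted p = 0.0343). The endothelial nitric oxide synthase gene NOS3 had a difference of -0.57 (adjusted p = 0.0625) and was not called. PECAM1 and TIE1 had the smallest differences, -0.28 and -0.34, with overlapping groups (adjusted p = 0.359 and 0.176). The summed signal of the 7 markers, relative to the 75th percentile, ran from 0.73 to 0.899 in fetal triclosan and from 1.04 to 1.15 in maternal triclosan. PECAM1, in band 7 of 10, was the brightest of the 7 and weighs most in that sum. In whole tissue, fewer cells of a type and less RNA per cell cannot be told apart. With quantile normalization the list's median was -0.56 and KDR alone kept its call, with CD93 at an adjusted p of 0.0714. The median was -0.36 with the authors' deposited values and -0.245 with normexp background correction. Without fetal triclosan 1, or without any 1 of the maternal triclosan arrays, 1 of the 7 was called.

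FGFR1, a receptor for fibroblast growth factors, was also called lower. It read -4.10, -4.43, -3.95 and -4.13 in fetal triclosan, and -3.23, -3.44 and -2.999 in maternal triclosan, with no overlap. The difference was -0.93 (SE 0.18, adjusted p = 0.00796), and a second probe of the same record gave -1.36 (adjusted p = 0.0106). Of 5 measured meningeal and connective tissue markers 2 were called lower, the collagen chains COL1A2 (-0.86, adjusted p = 0.0231) and COL3A1 (-0.94, adjusted p = 0.0494), and the median of the list was -0.67. The prostaglandin D synthase gene PTGDS had a difference in the other direction, 0.42, with separate groups (adjusted p = 0.103), and TIMP1, an inhibitor of metalloproteinases, one of -0.36 with overlapping groups (adjusted p = 0.206). The summed signal of the 5 markers, relative to the 75th percentile, ran from 62.4 to 81 in fetal triclosan and from 57.2 to 63.4 in maternal triclosan. The ranges overlapped, with fetal triclosan reaching higher. Neither collagen kept its call with quantile normalization, at adjusted p values of 0.054 and 0.0835, and no gene of the list was called without fetal triclosan 1, maternal triclosan 2 or maternal triclosan 3. Decorin (DCN), a matrix proteoglycan, had a difference of -0.67 by its brightest probe (adjusted p = 0.0567). Its second probe was called lower (-0.80, adjusted p = 0.0278). The matrix metalloproteinase gene MMP2 had a difference of -0.66 (adjusted p = 0.0289). MMP2 lost its call with quantile normalization (adjusted p = 0.146).

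Genes of innate immune signalling differed in both directions. MYD88, the adaptor of most Toll-like receptors, read -4.40, -4.68, -3.95 and -4.47 in fetal triclosan, and -3.68, -2.56 and -3.27 in maternal triclosan. The groups were separate, with maternal triclosan 2 the highest (difference -1.21, SE 0.292, adjusted p = 0.0125). Its second probe, well above background on 3 fetal and 2 maternal arrays, gave -0.36 with overlapping groups. TRAF3, an adaptor of interferon and TNF-family signalling, had a difference of -0.96 (SE 0.207, adjusted p = 0.00984), and within slides 1 to 3 it was -0.89, -0.76 and -0.78. IKKBETA, a kinase of the NF-kappaB pathway, had a difference of -1.12 (SE 0.24, adjusted p = 0.00842), which lost its call under normexp background correction only (adjusted p = 0.132).

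Of the 22 measured members of the interferon and inflammation list, MYD88 and the cytokine gene IL1B (-0.51, adjusted p = 0.0247) were called lower and CXCL10 higher, and the list's median difference was 0.00. CXCL10, a chemokine gene induced by interferon, read -1.73, -1.47, -1.04 and -3.77 on fetal triclosan arrays 1 to 4. It read -4.26, -3.81 and -3.72 on maternal triclosan arrays 1 to 3. Fetal triclosan 1 to 3 stood above all maternal triclosan arrays, while fetal triclosan 4 lay among them, so the groups overlapped (difference 1.93, SE 0.598, adjusted p = 0.0405). CXCL10 lost its call in 12 of the 22 alternatives, 11 of which left out 1 array. It kept the call without fetal triclosan 4 (adjusted p = 0.00633) or the first vehicle array of the fetal route (0.0407), and lost it without any other of the 13 arrays, at up to 0.128 without maternal triclosan 1. IL1B lost its call with quantile normalization (adjusted p = 0.24), and its difference with vehicle, -0.58, was as large. Among microglia and leukocyte markers none of 7 was called, and the T cell kinase gene LCK, which had the smallest p, had a difference of -0.52 (adjusted p = 0.0978).

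Neuropeptide genes gave 1 call in 8 measured releasing hormones and neuropeptides, and the list's median was -0.03, against -0.11 for all named genes. That call count is near the 11.2% of all named genes called in either direction, as are 1 in 8 for the appetite peptides and for the xenobiotic response list. TAC1 encodes the precursor of substance P and neurokinin A. It read 2.23, 2.52, 2.41 and 2.32 on fetal triclosan arrays 1 to 4, and 1.59, 1.81 and 1.55 on maternal triclosan arrays 1 to 3. Fetal triclosan was higher with no overlap (difference 0.72, SE 0.15, adjusted p = 0.00984). TAC1 differed as much between the routes with vehicle, by 0.67, with levels from 1.76 to 2.16 for the fetal route and of 1.22 and 1.42 for the maternal route. The difference between both route differences was 0.05 and was not called.

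The peptides of the arcuate nucleus and the other hypothalamic nuclei overlapped between routes at all 10 genes examined, and none was called. Growth hormone-releasing hormone (GHRH) read 0.29, -1.10, -1.01 and -3.89 in fetal triclosan, against -2.41, -1.92 and -1.58 in maternal triclosan. AGRP, which stimulates feeding, read -0.68, -1.48, -2.39 and -6.00 in fetal triclosan, against -2.16, -1.35 and -0.60 in maternal triclosan. NPY, made by the same neurons as AGRP, read 1.66, 1.65, 1.19 and -1.002 in fetal triclosan, against 1.61, 1.599 and 1.99 in maternal triclosan. In all 3 the lowest of the 7 arrays was fetal triclosan 4, and this held for 9 of the 10 peptides. The exception was melanin-concentrating hormone (PMCH), lowest on maternal triclosan 1.

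The remaining differences among these peptides were -0.51 for gonadotropin-releasing hormone (GNRH1), 0.04 for SST, 0.59 for galanin (GAL) and -0.38 for neurokinin B (TAC3). They were -0.41 for POMC, the precursor of melanocortins, -0.26 for PMCH and -0.10 for OXT. Without fetal triclosan 4 the differences of AGRP, NPY and SST were -0.15, -0.23 and 0.58, those of OXT and TAC3 turned positive, at 0.33 and 0.03, and that of GAL was 1.03 with the lowest adjusted p of the 10, 0.0795. SST and PMCH had the opposite sign with quantile normalization, at -0.27 and 0.03. The alpha subunit shared by the pituitary glycoprotein hormones (CGA) ranged from -5.58 on fetal triclosan 4 to -0.02 on maternal triclosan 2. None of the 5 pituitary genes measured was called, and the prolactin gene PRL had a difference of -0.55 (adjusted p = 0.359). The median of the 5, -1.19, is the value of POU1F1, well above background on 1 fetal and 2 maternal triclosan arrays. That median became -0.225 with normexp background correction and -0.29 with the authors' deposited values. The part of pituitary tissue in the samples was not tested.

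Transthyretin (TTR), a thyroid hormone carrier that the choroid plexus makes in abundance, read -2.11, 1.98, 3.36 and -0.19 in fetal triclosan, and -0.61, -1.78 and -1.60 in maternal triclosan. Fetal triclosan held both the lowest and the highest of the 7 arrays, and the difference of 2.09 (SE 1.17, adjusted p = 0.198) was not called. TTR was the only choroid plexus marker measured. The receptor for thyrotropin-releasing hormone, TRHR, had a difference of 1.57 with overlapping groups (adjusted p = 0.0824). VIM, an intermediate filament gene of tanycytes and other glia, had one of -0.69 (adjusted p = 0.0583).

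ASIP encodes agouti signalling protein, an antagonist of melanocortin receptors best known for its part in coat colour. It read 5.34, 5.38, 5.20 and 5.27 in fetal triclosan, and -3.24, -3.27 and 5.05 in maternal triclosan. Maternal triclosan 3 lay beside the fetal triclosan arrays, as did the 6 vehicle arrays, from 3.70 to 5.13, and only maternal triclosan 1 and 2 were low. A second probe of the same record had a difference of 6.67, with separate groups. The difference of 5.79 (SE 1.86, adjusted p = 0.0321) is a mean of unlike arrays: within slides 1, 2 and 3 it was 8.58, 8.65 and 0.15. Without maternal triclosan 3 it was 8.55 and passed the threshold in the 7-array fit (adjusted p = 3.01e-06). In the 13-array fit ASIP lost its call in 5 of 22 alternatives. They were quantile normalization (adjusted p = 0.0549) and leaving out fetal triclosan 1 (0.0618), fetal triclosan 2 (0.0568), maternal triclosan 1 (0.125) or maternal triclosan 2 (0.105). ASIP was the only call among 8 appetite peptides measured, whose median difference was -0.34.

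In the growth hormone and insulin-like growth factor (IGF) system, 11 of 13 measured members had differences below 0, with a median of -0.28. Under its listed symbol 1 was called. The entries IGFR1 and IGF-IIR, which kept older names, were matched to no list and are given at the end. IGF2, a fetal growth factor, read 0.69, -0.10, 1.22 and -0.59 in fetal triclosan, and 1.78, 1.51 and 3.06 in maternal triclosan. The groups were separate, with maternal triclosan 3 well above the rest (difference -1.81, SE 0.514, adjusted p = 0.049). A second IGF2 probe gave -1.65. With quantile normalization IGF2 had a difference of -1.86 and lost its call (adjusted p = 0.0618). IGF1 had a difference of -0.62 with separate groups (adjusted p = 0.0617), and the receptor for GHRH, GHRHR, one of 1.04 (adjusted p = 0.272).

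In the fatty acid list, which covers synthesis and oxidation, 3 of 10 measured genes were called lower and 1 higher. Of the 10, 9 had differences below 0, and the median was -0.65. Those called lower included SCD, the desaturase that makes monounsaturated fatty acids (-0.72, adjusted p = 0.0234), and PPARGC1A, a coactivator of mitochondrial biogenesis (-0.84, adjusted p = 0.0407). LPL, the lipase that frees fatty acids from circulating triglycerides, was the 1 gene called higher: it read -3.27, -3.78, -4.08 and -3.87 in fetal triclosan and -4.60, -5.03 and -4.66 in maternal triclosan. No overlap was seen between the groups (difference 1.01, SE 0.225, adjusted p = 0.0186). With quantile normalization the median was -0.39 and with the authors' values -0.29, and under both 0 genes of the list were called lower and 1 higher. Without maternal triclosan 1 the list held 1 call, higher, and without maternal triclosan 3 it held 0.

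ACSS2, which makes acetyl-CoA from acetate, was called lower and lay outside that list. It read -4.80, -5.18, -4.42 and -4.87 in fetal triclosan, and -3.75, -3.86 and -3.64 in maternal triclosan. Both groups were separate, and the vehicle arrays, from -4.22 to -3.59, lay above every fetal triclosan array (difference -1.07, SE 0.199, adjusted p = 0.00928). Its second probe gave -0.67 with overlapping groups. SHMT1, an enzyme of one-carbon metabolism, had a difference of -1.01 with separate groups (SE 0.218, adjusted p = 0.0167).

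Genes of mitochondrial proteins were called in both directions, and those named here come from no list. ENDOG, a mitochondrial nuclease, read 0.09, 0.12, 0.05 and 0.05 in fetal triclosan, and -0.49, -0.35 and -0.80 in maternal triclosan. The maternal triclosan values lay near those of the 6 vehicle arrays, from -0.57 to -0.42, and the fetal triclosan arrays stood above them all (difference 0.62, SE 0.155, adjusted p = 0.0104). GLRX2, a mitochondrial glutaredoxin, read 0.13, 0.31, 0.22 and 0.68 in fetal triclosan, against -0.71, -0.49 and -0.62 in maternal triclosan. Fetal and maternal triclosan did not overlap (difference 0.94, SE 0.176, adjusted p = 0.0125), and with vehicle the difference was 0.42. ATP5PO, a subunit of ATP synthase, had a difference of 0.67 with separate groups (SE 0.158, adjusted p = 0.00984), and it lost its call with quantile normalization only (adjusted p = 0.0998). SLC25A38, a mitochondrial carrier chosen after its value was seen, was called lower (-0.50, adjusted p = 0.0478) and kept its call in 5 of 22 alternatives.

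All 3 measured genes of the oxidative stress list were called higher, with a median of 0.67: thioredoxin (TXN, 0.54, adjusted p = 0.031), mitochondrial superoxide dismutase (SOD2, 0.74, adjusted p = 0.0463) and the brain metallothionein MT3 (0.67, adjusted p = 0.0482). Of 17 genes listed, these were the only ones measured. None kept its call with quantile normalization, at adjusted p values of 0.45, 0.0587 and 0.295, and the median was then 0.33. The list held 0 calls without maternal triclosan 1 or 3, and 1 without fetal triclosan 1, 2 or 4 or maternal triclosan 2. At SOD2 fetal triclosan 3 lay inside the maternal triclosan range, and with vehicle the difference was -0.61.

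Of 8 measured chaperone and unfolded protein response genes 4 were called lower, 1 of them with an uncertain direction. The other 4, HSPA5, HSP90AA1, XBP1 and ATF6, overlapped between the groups and were not called, and the list's median was -0.47. The inducible heat shock protein gene HSP70.1 read -0.42, -1.54, -0.22 and -0.55 in fetal triclosan, and 0.27, 0.19 and 0.86 in maternal triclosan. Maternal triclosan 3 lay within the vehicle range of 0.71 to 1.21, and the other 6 arrays lay below it, fetal triclosan lowest (difference -1.12, SE 0.336, adjusted p = 0.0235). ATF4, the transcription factor of the integrated stress response, had a difference of -0.54 (SE 0.143, adjusted p = 0.0183), and PDIA4, an enzyme that forms disulfide bonds in the endoplasmic reticulum and is named to complete the count, one of -0.93 (adjusted p = 0.0258), close to its -0.90 with vehicle. DDIT3, a factor induced by unfolded proteins, gave -0.78 (SE 0.159, adjusted p = 0.0373) by 1 probe and 0.44 with overlapping groups by another that begins at the neighbouring base of the record, so its direction is uncertain. HSP70.1 and ATF4 kept their calls with quantile normalization. The list held 0 calls without maternal triclosan 1 or 3, and 2 without fetal triclosan 1.

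Transcription factors that respond fast to stimuli split. JUND, of the AP-1 family, was called lower (-1.09, SE 0.278, adjusted p = 0.016), and fetal triclosan 2, at -2.14, lay apart from the other 3 fetal triclosan arrays, which ran from -1.17 to -1.07. EGR1 was called higher (0.63, adjusted p = 0.0238) by its brighter probe, and lost that call without fetal triclosan 1 (adjusted p = 0.0534), maternal triclosan 1 (0.0695) or maternal triclosan 3 (0.0976). Its other probe, well above background on 1 fetal and 2 maternal arrays, gave -0.63 with overlapping groups (adjusted p = 0.391). FOS was not called by any of 4 probes: the brightest had a difference of 0.59 (adjusted p = 0.153) and the other 3, from another record, -0.29, -0.33 and -0.50, all with overlapping groups, so its direction is uncertain. CSNK1E, a casein kinase of the circadian clock, read -1.30, -1.92, -1.03 and -1.74 in fetal triclosan, against -0.46, -0.31 and -0.69 in maternal triclosan. No array crossed into the other group (difference -1.01, SE 0.242, adjusted p = 0.0105), and within slides 1 to 3 the difference was -0.84, -1.61 and -0.33.

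Genes of neurotransmission gave 1 call in each direction among 9 measured members of the glutamate and GABA list. All of these were glutamate genes. Outside the list, the metabotropic glutamate receptor genes MGLUR1 (-0.90, adjusted p = 0.0257, groups overlapping) and MGLUR8 (-0.48, adjusted p = 0.042) were also called lower. Neither kept its call with quantile normalization (adjusted p = 0.0659 and 0.373). The metabotropic glutamate receptor gene MGLUR3 read -5.81, -5.33, -4.74 and -4.11 in fetal triclosan, against -3.61, -3.99 and -3.04 in maternal triclosan. Only a small gap separated fetal triclosan 4 from maternal triclosan 2 (difference -1.45, SE 0.415, adjusted p = 0.0209). MGLUR4, another receptor of the family, was called higher (0.61, adjusted p = 0.0208) and kept its call with quantile normalization, which MGLUR3 did not (adjusted p = 0.0571). The glial glutamate transporter EAAT1 had a difference of -0.60 (adjusted p = 0.0519), and the other main one, EAAT2, of 0.52 (adjusted p = 0.0894). No astrocyte marker of 5 was called by its brightest probe, and FGFR3 came closest, at -1.15 (adjusted p = 0.0557). A second FGFR3 probe of the same record was called lower, with separate groups (-1.50, adjusted p = 0.0415). GJA1, the astrocyte gap junction gene, had a difference of 0.54 (adjusted p = 0.176).

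Further genes called higher included calmodulin 2 (CALM2, 0.62, adjusted p = 0.0215), the adaptor YWHAE (0.69, adjusted p = 0.0213), the proteasome subunit PSMB7 (0.58, adjusted p = 0.0216) and the haem synthesis enzyme UROD (0.63, adjusted p = 0.0186). None of these 4 kept its call with quantile normalization, at adjusted p values from 0.0843 for YWHAE to 0.516 for CALM2. SLC17A5, a lysosomal sialic acid transporter, had a difference of 0.62 (adjusted p = 0.0299, and 0.0515 with quantile normalization). The prion protein gene PRNP was higher by the probes near the end of its transcript (0.58, adjusted p = 0.0219) and below 0 by those near its start (-0.33 and -0.49, groups overlapping), so its direction is uncertain.

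The ribosomal protein list held 1 call higher, RPL34 (0.60, adjusted p = 0.0382), and 1 lower, RPL32 (-0.86, adjusted p = 0.0194), in 9 measured. Outside the list, RPS12 (0.60, adjusted p = 0.0363) and RPL6 (0.52, adjusted p = 0.0488) were also called higher. With quantile normalization RPL34, RPS12 and RPL6 lost their calls (adjusted p = 0.391, 0.489 and 0.378), and RPL32 kept its own (0.0317). The list's median of 0.17 became -0.14 with quantile normalization and -0.08 with the authors' values, so the list has no settled direction. RPS25 had a difference of 0.32 (adjusted p = 0.0916), which turned to -0.02 with quantile normalization, and 1 of its other 3 probes, well above background on 1 fetal and 2 maternal arrays, gave -0.52. RPL34 had no value on maternal triclosan 2, whose spot was marked an outlier.

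The xenobiotic response list, which covers sensing and export of foreign compounds, had 1 call in 8: ARNT2, a partner of the aryl hydrocarbon receptor (-0.88, SE 0.264, adjusted p = 0.0229). ARNT2 kept its call in 17 of 22 alternatives, but not with the authors' values (-0.30, adjusted p = 0.109) or normexp (-0.27, adjusted p = 0.352). The efflux pump gene ABCB1 of the blood-brain barrier had a difference of -0.42 with separate groups (adjusted p = 0.118). In the erythroid list of 3, carbonic anhydrase 1 (CA1) was called higher (1.69, adjusted p = 0.0457), but it was well above background on 1 of 3 maternal triclosan arrays and the groups overlapped. The haemoglobin gene HBB and the globin chaperone gene AHSP had differences of -0.22 and 0.34 (adjusted p = 0.785 and 0.458). A second probe of each had the opposite sign, at 1.01 for HBB and -0.11 for AHSP (adjusted p = 0.543 and 0.839), so neither has a settled direction.

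Under its listed symbol and by its brightest probe, no member of the stress axis (9 measured), energy and peptide receptors (6) or thyroid axis (4) lists was called. Nor was any in the lists of sex steroid signalling (4), hypoxia and glycolysis (10) and cell cycle (6). Within them the receptor for corticotropin-releasing hormone, CRHR1, had a difference of -0.74 (adjusted p = 0.156) and the glucocorticoid receptor NR3C1 one of 0.43 (adjusted p = 0.124). The orexin receptor HCRTR1 had one of -0.60 (adjusted p = 0.109). The estrogen receptor ESR1 had a difference of 0.16 (adjusted p = 0.836). HIF1A, which mediates the response to low oxygen, had one of 0.42 (adjusted p = 0.0804), and its relative EPAS1 one of -0.42 (adjusted p = 0.139). A second EPAS1 probe of the same record was called lower, at -0.80 with separate groups (adjusted p = 0.0382). The glucose transporter gene of the hypoxia and glycolysis list, SLC2A1, was called lower under its older name GLUT-1 (-0.44, adjusted p = 0.0386). The proliferation genes AURKA and TYMS had differences of -0.62 and -0.71 (adjusted p = 0.171 and 0.121), and the cell cycle list's median was -0.67. A p above the threshold does not show that these genes were alike between the routes.

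**Figure D2:**
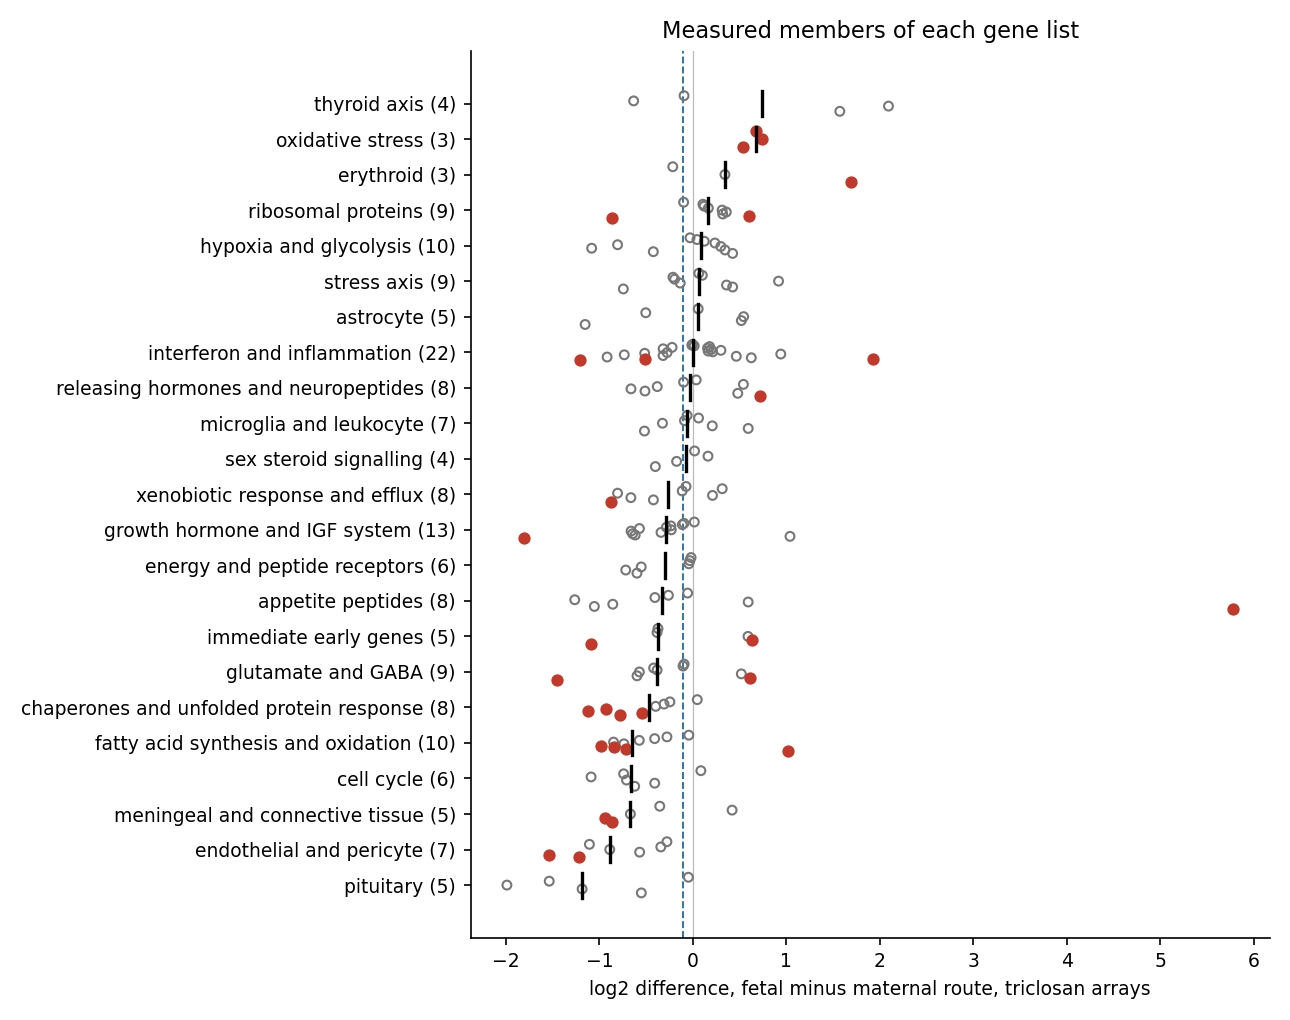
Difference between fetal and maternal triclosan (horizontal axis, log2) of each measured member of the gene lists with at least 3 measured members (vertical axis). Points are genes, filled red where called in the 13-array fit, black bars are list medians and the blue dashed line is the median of all named genes, -0.11. The oxidative stress genes lie at 0.54 to 0.74, and the 7 endothelial and pericyte markers all lie below 0.

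Most probes carried no gene name, and the smallest p values of the 7-array fit belonged to them. Of the 15008 probes on the array, 13352 had no name in the files or the gene table supplied with them. The 6 below, 3 in each direction, were chosen after their values were seen and are shown so that their transcripts can be looked up. Probe A_70_P023701 read -2.65, -2.50, -2.44 and -2.61 in fetal triclosan, against -1.15, -1.23 and -1.17 in maternal triclosan. Each group was tight and the gap between them was wide (difference -1.37, SE 0.136, adjusted p = 0.00205). Probes A_70_P032416 and A_70_P061421 had differences of -1.89 (SE 0.222) and -1.70 (SE 0.191), with separate groups. Among the higher probes, A_70_P013756 read 2.04, 1.68, 1.79 and 1.92 in fetal triclosan, against 0.55, 0.66 and 0.64 in maternal triclosan. Its groups were as well separated (difference 1.24, SE 0.148, adjusted p = 0.00842), and A_70_P045111 and A_70_P020096 had differences of 1.83 (SE 0.222) and 1.32 (SE 0.182). With vehicle the route difference at 5 of these 6 probes lay between -0.26 and -0.11, and at A_70_P020096 it was 0.58.
A_70_P023701: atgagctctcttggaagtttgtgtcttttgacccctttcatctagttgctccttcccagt
A_70_P032416: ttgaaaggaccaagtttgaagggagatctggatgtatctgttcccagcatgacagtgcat
A_70_P061421: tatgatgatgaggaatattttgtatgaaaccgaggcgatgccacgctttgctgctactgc
A_70_P013756: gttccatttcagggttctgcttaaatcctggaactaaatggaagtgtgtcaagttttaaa
A_70_P045111: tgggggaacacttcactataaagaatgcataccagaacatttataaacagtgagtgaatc
A_70_P020096: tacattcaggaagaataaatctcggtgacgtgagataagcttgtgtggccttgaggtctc

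The vehicle arrays show how far the routes differed without triclosan. Between vehicle given to the fetus (4 arrays) and vehicle given to the ewe (2 arrays), no probe was called (0%). An unadjusted p under 0.05 was found at 448 probes (3.38%), and the lowest adjusted p was 0.751. With so few arrays, differences could be missed. Over all tested probes the median size of the difference was 0.32 with triclosan and 0.15 with vehicle. At the 1885 called probes it was 0.73 and 0.15, but these probes were chosen by their triclosan difference, which favours a larger size there. Of the called probes 71.7% had the same sign with vehicle, against 53.8% of all probes. Of the 97 called named genes, 61 had a fetal triclosan mean outside the range of the 6 vehicle arrays and a maternal triclosan mean inside it. Another 5 had the reverse, 30 had both means outside, on opposite sides of the range in 18, and 1 had both inside. These genes were chosen because the triclosan groups differed, and the same counts were not made over all 864 named genes. Fetal triclosan also had the largest spread, with a median SD of 0.324. The counts therefore do not show which group departed from vehicle.

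The test of the difference between both route differences called no probe (0%). Its lowest adjusted p was 0.175, and 1988 probes (15%) had an unadjusted p under 0.05. Among the named genes with the smallest unadjusted p for a larger fetal minus maternal difference with triclosan were the adenosine receptor gene ADORA3 (1.19), SOD2 (1.36), EAAT2 (1.15) and ENDOG (0.60). In the other direction they included MYD88 (-1.56), KDR (-1.15), IKKBETA (-1.13) and ACSS2 (-1.06). For ADORA3, SOD2 and EAAT2 the vehicle part was large, with vehicle differences of -0.93, -0.61 and -0.63. For KDR, IKKBETA, ACSS2 and ENDOG it was at most 0.06 in size.

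**Figure D3:**
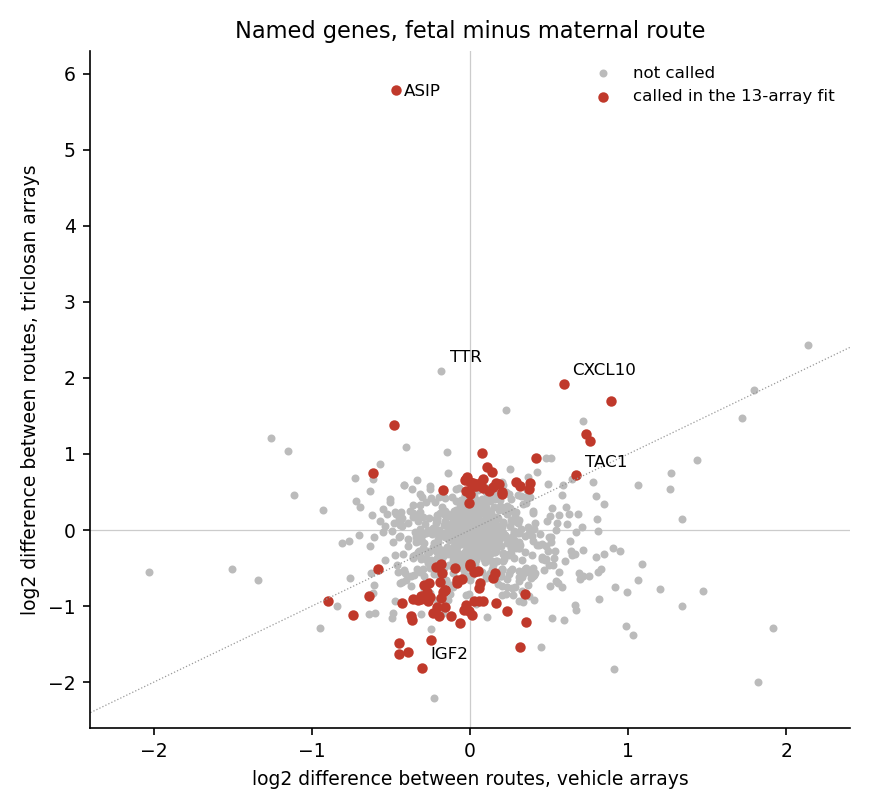
Difference between the fetal and the maternal route with vehicle (horizontal axis, log2, 4 and 2 arrays) and with triclosan (vertical axis, log2, 4 and 3 arrays) for 864 named genes. Red points are the 97 genes called in the 13-array fit of the triclosan difference, and the dotted line marks equal differences. TAC1 lies near that line, at 0.67 and 0.72, and CXCL10 away from it, at 0.59 and 1.93.

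The arrays were not equally far apart. On the first principal component, which held 36.4% of the variance, the maternal triclosan arrays lay at 34.1, 27.8 and 39.8 and fetal triclosan 1, 2 and 4 at -27.6, -40.1 and -36.8. Fetal triclosan 3 lay between them, at 2.79. Its median correlation with the other fetal triclosan arrays, 0.976, was below that with the maternal triclosan arrays, 0.980. It was the fetal triclosan array closest to the maternal triclosan mean at 38.8% of all probes and 55.1% of the called ones. Without it the 7-array fit called 86 probes and the 13-array fit 2589, including 1792 of the 1885. Without maternal triclosan 3 the 13-array fit called 395 probes, and without maternal triclosan 1 it called 513, so the counts also rest on those arrays. Without maternal triclosan 2 or fetal triclosan 1 it called 1078 and 1113.

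**Figure D4:**
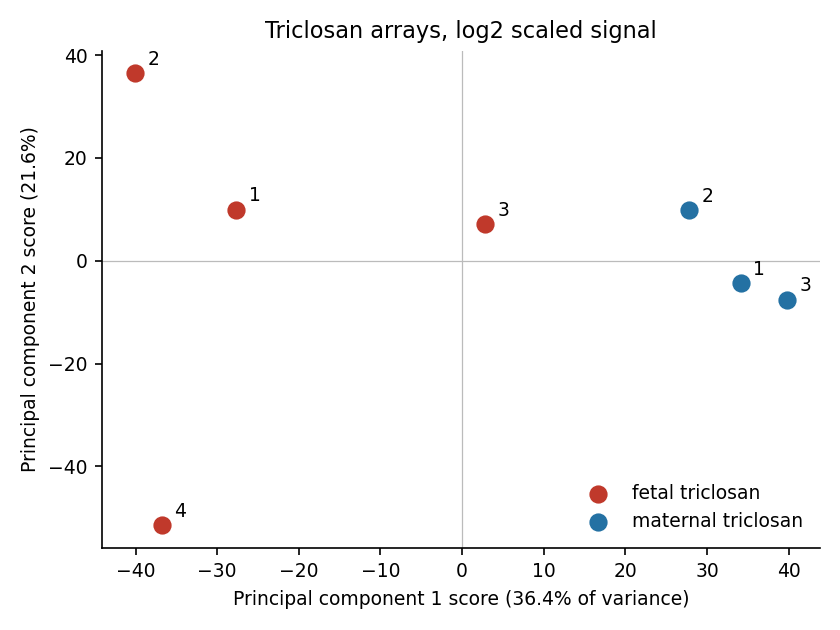
First against second principal component of the 7 triclosan arrays over 13159 probes with values on all of them (axes in score units, 36.4% and 21.6% of the variance). Numbers are replicates. The 3 maternal triclosan arrays lie together at 27.8 to 39.8 on the first component, fetal triclosan 3 lies at 2.79, and fetal triclosan 2 and 4 lie at opposite ends of the second component, at 36.5 and -51.5.

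Direction also followed brightness. When the tested probes were ranked by mean signal and divided into 10 bands of equal size, the median difference was -0.40 in band 1, the dimmest, and 0.26 in band 10. Called probes numbered 6 higher and 106 lower in band 1, and 245 higher and 21 lower in band 10. Quantile normalization, which gives all arrays 1 distribution, left medians from -0.05 to 0.02 across the bands, and the vehicle arrays had no such gradient, with 0.03 in both band 1 and band 10. Genes such as KDR, CD93 and FGFR1 lie in band 3, and CALM2, PSMB7, TXN and MT3 in band 10. With quantile normalization the 13-array fit called 902 probes, 752 of them among the 1885, and of the 97 named genes it kept 41, 12 higher and 29 lower.

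**Figure D5:**
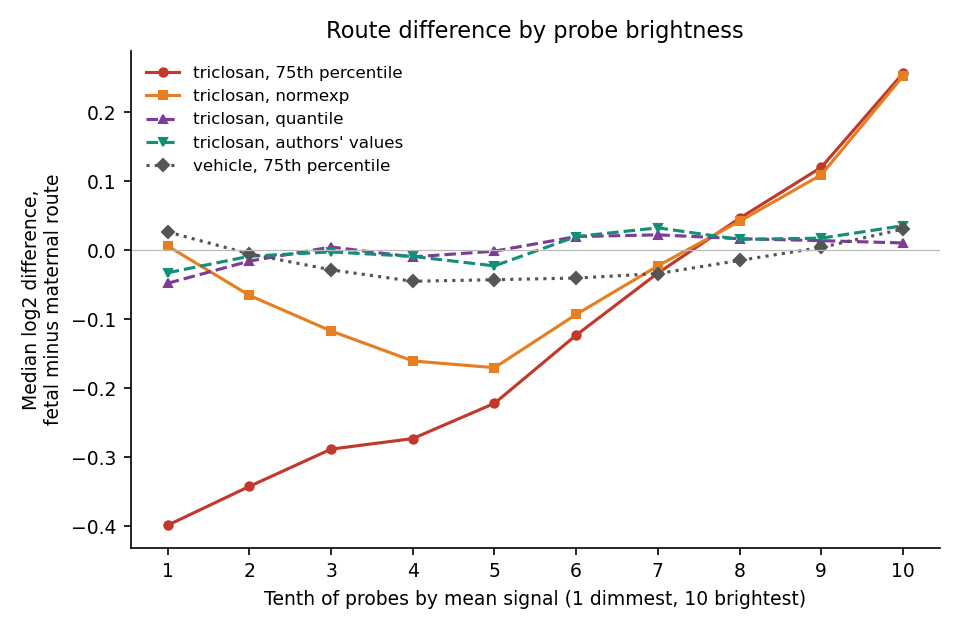
Median difference between fetal and maternal route (vertical axis, log2) in 10 equal bands of the 13244 tested probes ranked by mean signal (horizontal axis, dimmest to brightest). Lines stand for the triclosan arrays under 4 kinds of processing and for the vehicle arrays. The 75th percentile scaling rises from -0.40 to 0.26, the normexp line runs from 0.01 through -0.17 to 0.25, and the quantile, authors' values and vehicle lines stay near 0.

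Fetal triclosan 4 lay alone on its slide, so it could not be compared with a maternal triclosan array there. Within slides 1, 2 and 3, where 1 array of each triclosan group lay, 99.95%, 99.89% and 99.15% of the 1885 called probes had the direction of the whole comparison, which includes those same arrays. The mean signal of probes far from the end of a transcript relative to probes near it, over 28 records with probes at least 300 bases apart, was -1.09, -1.38, -1.04 and -1.02 in fetal triclosan and -1.08, -1.01 and -1.01 in maternal triclosan. Fetal triclosan 2 was lowest, and the part of RNA quality in the differences was not tested. Of the 46 called named genes with more than 1 probe, 42 had every other probe in the same direction, 31 had another one called the same way, and none had a probe called the opposite way.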

How the data were processed

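Trizol, RNeasy columns and DNase gave the RNA, and Cy3 was the label, per the labels' protocols. The deposited scanner output holds a processed intensity per spot, made by Agilent Feature Extraction 10.1.1.1 and background-subtracted within arrays, per the file headers. The value table the authors deposited appears to be on a log2 scale, as each of its columns lay closest to its own array, but no source used here gives its centring or filter. Here control spots and spots marked as outliers were left out, spots of a probe were averaged, log2 was taken and each array's 75th percentile subtracted. limma 3.58.1 in R 4.3.3 was fitted to the 7 triclosan arrays (planned fit, 5 residual degrees of freedom) and to 13 arrays with a mean per group (9), with two-sided tests and Benjamini-Hochberg adjustment at 0.05. The scripts were tested on simulated data. The number of arrays limits the precision.

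Probes were named through RefSeq transcript (703), symbol (497), gene number (125) or older symbol (20), with 211 keeping the file's name. The brightest probe stands for a gene. Named genes were the 12 largest in each direction by the smallest unadjusted p, since no gene passed in the 7-array fit, up to 3 or 4 per list, fixed peptides, and 5 in each direction for the difference between route differences. A few genes meeting this rule are left unnamed. The members and lists were chosen with earlier results of these data known. Alternatives were background correction, scaling, filter, outliers, weights, variance trend, blocks, the number of arrays and leaving out each array, and the 13-array alternatives and the fit without fetal triclosan 3 and 4 were added after seeing the data. Figures were drawn with matplotlib 3.10.9 in Python 3.11.15.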

Additional observations from a re-analysis of the deposited data

Results flagged for a closer look

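Among 166 sets of 4 replicate values, for the genes named above in both groups of the fetal route, 3 held an array far from the other 3, where chance gives about 1 in 20. JUND in fetal triclosan replicate 2 was -2.14, against -1.17 to -1.07 on the other 3 arrays of the group. DDIT3 in the first array of vehicle given to the fetus was -3.87, against -4.57 to -4.47 on the other 3. MYD88 in the same vehicle array was -3.71, against -3.41 to -3.35. The gap to the nearest array was 0.908, 0.865 and 0.85 of the range, above Dixon's critical value for sets of this size.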

How the results depend on the processing

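The 7-array fit called 0 probes. It called 161 with normexp background correction, 1 with quantile normalization, 2 with a variance trend, 1312 with array weights, 349 with the slide as a random block and 1885 with 13 arrays in the fit, and from 0 to 86 when 1 array was left out. The other alternatives called 0. The 13-array fit called 1077 with normexp, 902 with quantile normalization, 1052 with the authors' values, and from 395 to 2589 without 1 array. The difference between route differences had 0 calls, 1 with quantile normalization, 6 with all 14 arrays and from 0 to 67 without 1 array. The vehicle difference had from 0 to 2. The 2 probes called without maternal triclosan replicate 3 in the 7-array fit included ASIP.

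Same-numbered triclosan arrays correlated at 0.0586, 0.181 and 0.0228 in their deviations from the group means, so the numbers were not taken as pairs. With the replicate block the 7-array fit called 0 probes and the 13-array fit 1694, and the differences of TAC3 and OXT turned to 0.0301 and 0.33.

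The cause of a change of sign was not tested, and all concerned genes that were not called. SST was -0.0033 with normexp, -0.27 with quantile normalization and -0.23 with the authors' values, RPS25 was -0.016 and -0.056 and PMCH 0.028 and 0.10 with the latter pair. HBB was 0.00698 and OXT 0.12 with median scaling. AHSP was -0.0019 and POMC 0.074 with array weights. Without fetal triclosan replicates 3 and 4, AGRP was 0.29, TAC3 0.24 and OXT 0.55. Leaving out 1 array gave ranges that crossed 0: -0.64 to 0.052 for HBB, -0.062 to 0.58 for ESR1, -0.031 to 1.36 for GHRH, -0.36 to 0.58 for SST, -0.72 to 0.0301 for TAC3 and -0.41 to 0.33 for OXT. The array number and signal over background set the precision.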

Other observations

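Some called genes were not matched to the lists, several of them because they kept the array design's older names. They are given here as values chosen after they were seen. IGFR1, a receptor of IGF1, had a difference of -0.91 (adjusted p = 0.0136), and IGF-IIR, the IGF type II receptor, of -0.76 (adjusted p = 0.0346). ERBB2, a receptor of the epidermal growth factor family, had one of -1.63 (adjusted p = 0.0162), and SMAD1, which carries bone morphogenetic protein signals, of -0.93 (adjusted p = 0.0144). IGFR1 and ERBB2 kept their calls with quantile normalization (adjusted p = 0.0365 and 0.0295), while IGF-IIR and SMAD1 did not (0.0862 and 0.0809). With the authors' values neither IGFR1 nor ERBB2 kept its call (adjusted p = 0.0552 and 0.0996). ERBB2, a dim probe, had a difference of -0.48 there and of -0.27 with normexp (adjusted p = 0.484), where IGFR1 kept its call (0.0433). The probe listed as IGF1R had a difference of -0.65 and was not called (adjusted p = 0.0662).

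ZO2, a tight junction protein, had a difference of -1.60 (adjusted p = 0.0168), and GLUT-1, the glucose transporter of the blood-brain barrier, of -0.44 (adjusted p = 0.0386). Both kept their calls with quantile normalization (adjusted p = 0.0318 and 0.034). Of the 22 alternatives ZO2 kept its call in 20 and GLUT-1 in 9, and with median scaling GLUT-1 had an adjusted p of 0.282. The entry pgc1 had a difference of -0.69 (adjusted p = 0.0283), beside -0.84 for PPARGC1A. Besides CXCL10, the chemokine gene MCP-3 was called higher, with a difference of 1.26 (adjusted p = 0.0374, and 0.024 with quantile normalization). MCP-3 kept its call in 12 of the 22 alternatives.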
